A study of Homo sapiens with 18 samples.

Results

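The genes described here are 7 genes of HLA class I antigen presentation, HLA-B, HLA-C, HLA-E, HLA-F, HLA-G, B2M and NLRC5, followed in EA.hy926 cells before and after a double-stranded RNA stimulus. They were taken by gene symbol from the count matrix, where each of the 7 symbols names 1 of 62754 genes. EA.hy926 is a human endothelial line made by fusing umbilical vein endothelial cells with the lung epithelial line A549. The Mock group received the transfection reagent alone, the siNT group an siRNA without a target, and the siELMO1 group a pool of 3 siRNAs against ELMO1, a protein that takes part in engulfment and cell movement. The siRNA was used at 10 nM. After transfection the cells were kept in normal serum for the first day and then in low serum overnight before the stimulus. RNA was taken 48 h after transfection, called 0 h, or 24 h later from cultures to which 1 μg/ml poly(I:C) had been added, called 24 h. This compound is an artificial double-stranded RNA, a ligand of Toll-like receptor 3. Each of the 6 groups had 3 libraries, 18 in all, which the study describes as biological replicates of the same line.

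HLA class I molecules are heavy chains that pair with β2-microglobulin, the product of B2M, and carry short peptides from inside the cell to its surface, where CD8 T cells read them. HLA-B and HLA-C are classical heavy chains. HLA-E, HLA-F and HLA-G are non-classical ones. HLA-E presents signal peptides of other class I chains to the NKG2A receptor of natural killer cells, and HLA-G is best known from the placenta. NLRC5 is a member of the NLR family that has no DNA-binding domain of its own and activates class I promoters through factors bound to their S, X and Y boxes. The same promoters hold upstream sites for NF-κB and for interferon regulatory factors, and interferon raises both NLRC5 and the class I genes in most cell types.

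The promoter sequences are printed because the members rose by very different amounts, and these stretches show which of the known upstream motifs each gene holds. Each stretch is 170 bases of the RefSeq reference (GRCh38.p14), from 200 to 31 bases before the transcription start, in the direction of the gene. It covers chr6:31357210-31357379 for HLA-B and chr6:31272123-31272292 for HLA-C on the minus strand, and chr6:29723234-29723403 for HLA-F, chr6:29827625-29827794 for HLA-G and chr15:44711317-44711486 for B2M on the plus strand. Of the 7 genes, 5 had an entry in the promoter table used. HLA-G has 3 annotated starts, and the most downstream is shown. Capitals mark every match to the motifs AANNGAAA (interferon regulatory factors), CCAAT (the core of the Y box), TGACG (the core of a cAMP response element) and the NF-κB consensus, each on either strand.
HLA-B: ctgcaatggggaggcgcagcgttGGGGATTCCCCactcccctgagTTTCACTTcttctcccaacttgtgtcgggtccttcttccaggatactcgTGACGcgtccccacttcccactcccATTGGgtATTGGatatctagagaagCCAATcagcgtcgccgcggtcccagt
HLA-C: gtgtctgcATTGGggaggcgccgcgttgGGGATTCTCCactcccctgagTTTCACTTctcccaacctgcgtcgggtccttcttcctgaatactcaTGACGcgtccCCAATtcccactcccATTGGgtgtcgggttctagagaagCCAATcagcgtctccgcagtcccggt
HLA-F: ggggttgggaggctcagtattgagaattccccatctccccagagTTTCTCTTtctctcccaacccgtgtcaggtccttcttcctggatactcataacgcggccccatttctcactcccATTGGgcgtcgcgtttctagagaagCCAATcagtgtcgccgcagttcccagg
HLA-G: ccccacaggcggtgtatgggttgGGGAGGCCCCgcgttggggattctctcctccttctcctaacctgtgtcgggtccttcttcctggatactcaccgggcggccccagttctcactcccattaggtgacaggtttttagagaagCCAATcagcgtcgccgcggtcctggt
B2M: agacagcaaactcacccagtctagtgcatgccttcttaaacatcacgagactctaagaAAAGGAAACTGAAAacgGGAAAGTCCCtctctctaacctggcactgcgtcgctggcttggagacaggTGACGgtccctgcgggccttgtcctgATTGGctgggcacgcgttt

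The interferon regulatory factor letters were present once in HLA-B, HLA-C and HLA-F, at 144 to 156 bases before the start, and in a pair of overlapping matches in B2M. They were in none of the 3 HLA-G windows. TGACG was found in HLA-B, HLA-C and B2M, and not in HLA-F or HLA-G. The NF-κB consensus matched in HLA-B, HLA-C, HLA-G and B2M and not in HLA-F, and overlapping matches in HLA-B make up a single capital run. CCAAT on either strand was found in all 5, and on the gene's own strand at 56 or 57 bases before the start in the 4 HLA genes. Its other-strand form ATTGG began 80 to 82 bases before the start in HLA-B, HLA-C and HLA-F and 49 in B2M. HLA-G held no ATTGG. HLA-B and HLA-C held further matches, and which match acts as the Y box was not tested. Over all 35116 promoter windows of 250 bases in the table, 20.3% held AANNGAAA, 32.0% CCAAT, 21.2% TGACG and 9.96% the NF-κB consensus, so single matches are common. A match describes these letters in the reference only, and binding was not measured.

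**Figure D1:**
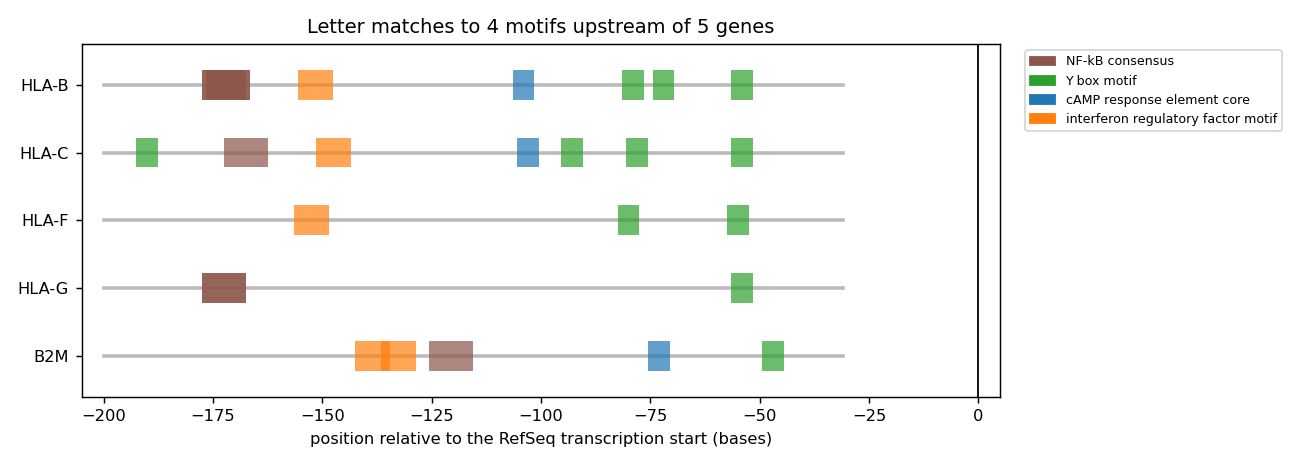
Positions of the motif matches in the printed stretches of 5 genes, in bases relative to the RefSeq transcription start (x axis), with 1 row per gene, a grey line for the stretch and boxes coloured by motif, darker where matches on both strands or at neighbouring positions overlap. HLA-B, HLA-C and HLA-F share an interferon regulatory factor match 144 to 156 bases before the start, which the HLA-G row lacks.

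Values are the authors' estimated counts per gene, scaled here to CPM (counts per 1 M library counts) with TMM factors, and given as mean ± SD of 3 libraries. Library totals ran from 40.4 to 73.9 M counts, so 3 counts, the limit that a count of 0 allows, stood for 0.0406 to 0.0743 CPM. This limit covers counting error only, whereas the 95% intervals given below come from edgeR and also cover the spread among libraries. Differences were tested with edgeR's quasi-likelihood test over all 18 libraries and 15167 genes, and called at a Benjamini-Hochberg adjusted p under 0.05. All 7 members passed the filter of 100 counts in total and 1 CPM in any library. HLA-G did so only through its 24 h libraries, being at 0.399 to 0.925 CPM in the 9 libraries of 0 h, so that a higher level at 24 h was built into its passing. ELMO1 was at 0.155 to 0.419 CPM in the 6 siELMO1 libraries and at 1.52 to 3.58 CPM in the other 12. The line's endothelial identity was visible in 10 of 12 markers at 1 CPM or more, while CLDN5 and EMCN were below it. The siELMO1 0 h library of replicate 1 stood apart from its own group, with a chi-square per degree of freedom of 76.4 and 84.7 against the other replicates where all other pairs lay between 10.7 and 31.6. The tests between groups for the members and the gene lists were therefore also computed without this library. The heavy-chain shares, the ratio of B2M to these chains, the levels per kb and the correlations between genes, all given below, were not.

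The HLA genes resemble each other closely, and the authors' counting could divide reads among them and among their pseudogenes, so the split between single HLA genes is uncertain. How reads of the line's own HLA alleles matched the single reference sequence was not tested. The library kit keeps the strand, but whether counting used it was not given in the sources used here. In GRCh38 (GENCODE 44), HLA-B lies on chromosome 6 from 31353872 to 31367067, HLA-C from 31268749 to 31272130, HLA-E from 30489509 to 30494194, HLA-F from 29722775 to 29738528 and HLA-G from 29826967 to 29831125. B2M lies on chromosome 15 from 44711358 to 44718851 and NLRC5 on chromosome 16 from 56989485 to 57083531. HLA-B overlaps DHFRP2 and MIR6891 on its own strand and 2 unnamed genes on the other. HLA-F overlaps HLA-F-AS1, RPL23AP1 and an unnamed gene on the other strand, HLA-G overlaps HCG4P8, and NLRC5 overlaps 2 unnamed genes. HLA-C, HLA-E and B2M overlap no annotated gene.

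To examine the response to double-stranded RNA, levels at 24 h were compared with those at 0 h within each transfection. No group was cultured for these 24 h without poly(I:C), so the stimulus and the added time in culture cannot be told apart. The word response stands here for this difference between times. HLA-B, HLA-C, HLA-E, HLA-F, B2M and NLRC5 rose in all 3 transfections, with every library of 24 h above every library of 0 h. HLA-G did not overlap between times either, but its being higher was built into passing the filter, so it is left out of the count. The rise was largest for HLA-B and HLA-F, 48.1-fold and 33.8-fold in Mock cells, and of these 6 smallest for HLA-E, 4.23-fold. Over all tested genes, 30.7% were higher and 29.6% lower in Mock, 28.6% and 25.2% in siNT, and 28.0% and 26.9% in siELMO1, against 6 higher and 0 lower among these 6 members in each. The share of all tested genes whose libraries did not overlap between times was not computed. In these bulk samples, fewer cells of a type and less RNA per cell cannot be told apart.

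HLA-B, a classical heavy chain, was among the low members before the stimulus. At 0 h it read 10.2, 9.78 and 10.5 CPM in the Mock libraries, 13.2, 15.6 and 14.0 in siNT and 13.6, 10.9 and 11.5 CPM in siELMO1. At 24 h the values were 469, 419 and 577 CPM in Mock, 288, 273 and 438 in siNT and 386, 367 and 511 CPM in siELMO1. The smallest value at 24 h was thus far above the highest at 0 h, and the 24 h groups overlapped each other. The log2 fold change was 5.59 in Mock (SE 0.20, adjusted p = 6.2e-14, edgeR), 4.55 in siNT (SE 0.19, adjusted p = 1.2e-12, edgeR) and 5.13 in siELMO1 (SE 0.19, adjusted p = 2.3e-13, edgeR).

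HLA-C, the other classical chain, began at a higher level and rose less. It read 28.8, 27.4 and 30.5 CPM in Mock at 0 h, 38.6, 38.6 and 38.1 in siNT and 38.3, 34.5 and 35.7 CPM in siELMO1. After poly(I:C) it read 347, 316 and 403 CPM in Mock, 231, 219.9 and 329 in siNT and 301, 289.8 and 388 CPM in siELMO1. The increase was 12.3-fold in Mock, 6.77-fold in siNT and 9.02-fold in siELMO1, with adjusted p of 3.9e-13, 2.2e-11 and 2.8e-12 by edgeR. At 24 h the groups again overlapped.

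HLA-E, the ligand of NKG2A, was the most abundant of the 5 heavy chains at 0 h and differed between all 3 transfections. Its libraries read 155, 145 and 164 CPM in Mock, 109, 116 and 115 in siNT and 207, 195 and 213 CPM in siELMO1, with no overlap between groups. At 24 h they read 637, 616 and 705 CPM in Mock, 342, 335 and 430.4 in siNT and 576, 564 and 639.6 CPM in siELMO1. The siNT libraries were again the lowest, whereas Mock and siELMO1 overlapped. The log2 fold change at 24 h was 2.08 in Mock (SE 0.086), 1.70 in siNT (SE 0.086) and 1.53 in siELMO1 (SE 0.085), with adjusted p between 7.0e-13 and 5.6e-11 by edgeR.

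HLA-F, a non-classical chain kept mostly inside resting cells, was near 1 CPM before the stimulus, where it had 32 to 89 counts per library. It read 0.901, 0.932 and 0.830 CPM in Mock at 0 h, 1.04, 0.870 and 1.26 in siNT and 1.21, 0.803 and 0.698 CPM in siELMO1, and the groups overlapped. At 24 h the libraries read 27.1, 26.9 and 36.1 CPM in Mock, 17.1, 15.1 and 25.5 in siNT and 26.2, 22.6 and 30.1 CPM in siELMO1. These are increases of 33.8-fold, 18.1-fold and 28.1-fold, with adjusted p of 2.1e-12, 4.5e-11 and 7.8e-12 by edgeR. Without replicate 1 of siELMO1 at 0 h the log2 fold change in siELMO1 was 5.13 in place of 4.81.

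HLA-G stayed the least abundant member throughout. At 0 h it had 20 to 62 counts per library, with 0.763, 0.608 and 0.690 CPM in Mock, 0.925, 0.608 and 0.718 in siNT and 0.720, 0.527 and 0.399 CPM in siELMO1. At 24 h it read 4.60, 3.64 and 5.22 CPM in Mock, 3.32, 2.71 and 2.50 in siNT and 3.36, 3.94 and 5.09 CPM in siELMO1. The siNT libraries lay below those of Mock and of siELMO1 at 24 h. The log2 fold change was 2.70 in Mock (SE 0.24), 1.92 in siNT (SE 0.24) and 2.89 in siELMO1 (SE 0.25), given without a p because the filter favoured this direction.

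B2M, the light chain shared by all class I molecules, had the highest level of the 7 genes. It read 305, 297 and 305 CPM in Mock at 0 h, 366, 391 and 381 in siNT and 313, 315 and 320.4 CPM in siELMO1, without overlap between groups. After 24 h it read 1538, 1462 and 1775 CPM in Mock, 1211, 1169.8 and 1509 in siNT and 1267, 1266 and 1549 CPM in siELMO1, with all 3 groups overlapping. The rise was 5.26-fold in Mock, 3.42-fold in siNT and 4.30-fold in siELMO1, with adjusted p between 3.9e-13 and 3.9e-11 by edgeR.

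NLRC5, the class I transactivator, had its highest level at 0 h in siNT cells. It read 15.3, 16.1 and 17.2 CPM in Mock, 26.0, 26.8 and 29.0 in siNT and 18.7, 14.5 and 16.5 CPM in siELMO1. Only siNT stood clear of the other groups, all of its libraries being above theirs. At 24 h it read 128, 119.6 and 141 CPM in Mock, 94.7, 81.7 and 121 in siNT and 115, 111 and 131 CPM in siELMO1. The increase was 7.99-fold in Mock, 3.64-fold in siNT and 7.15-fold in siELMO1, with adjusted p of 8.3e-13, 6.1e-10 and 2.6e-12 by edgeR.

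**Figure D2:**
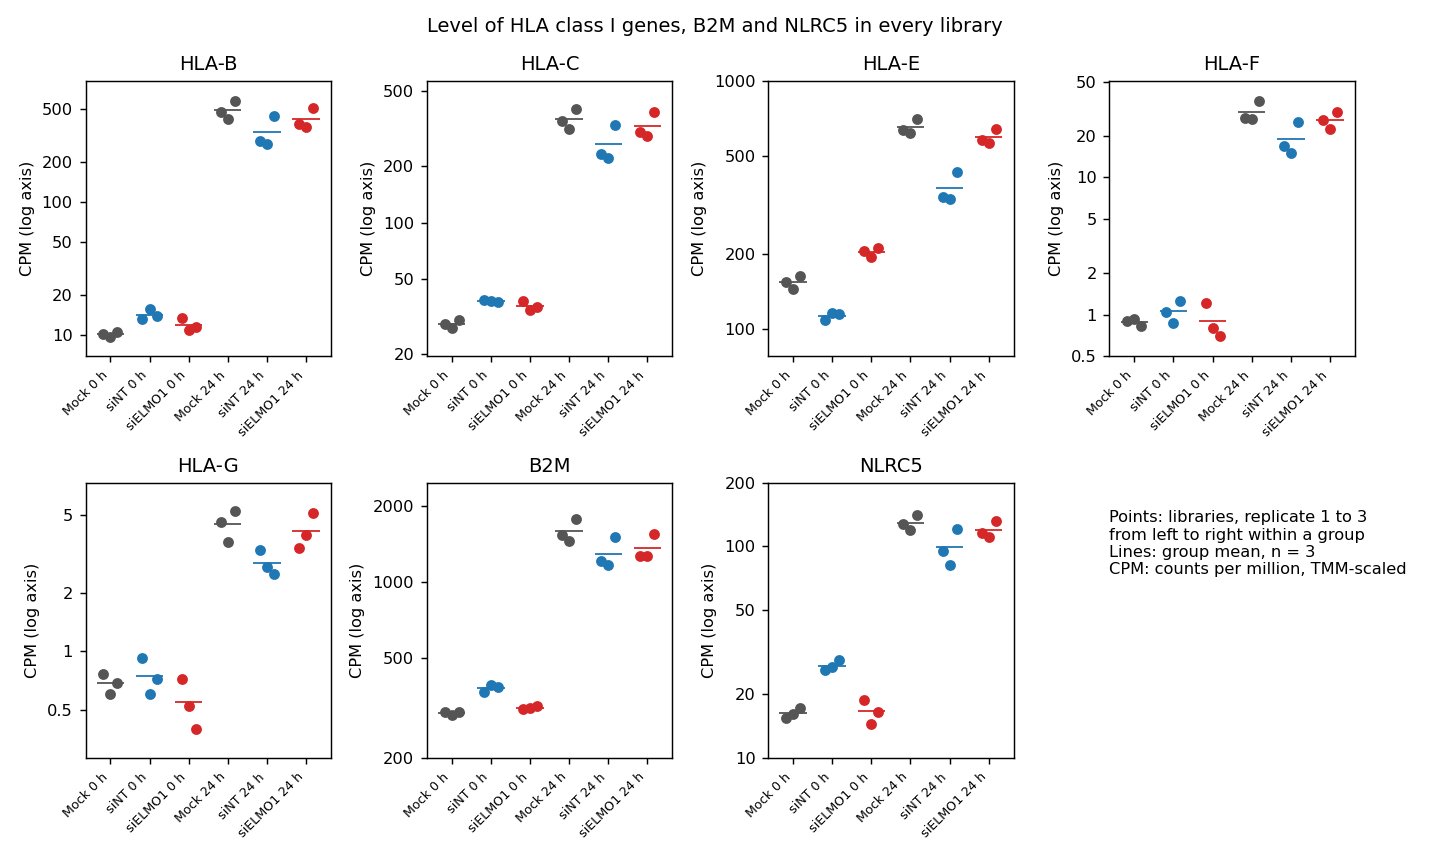
Level of the 7 genes in each library, in CPM on a log axis with its own range per panel (y axis), by group (x axis), with points for replicates 1 to 3 from left to right and lines for the mean of 3 libraries. All 24 h points lie above all 0 h points in every panel, a direction that the filter favoured for HLA-G. At 24 h replicate 3 is the highest point of all 3 groups for 6 of the 7 genes.

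At 24 h the library of replicate 3 was the highest of its group in Mock, siNT and siELMO1 alike for 6 of the 7 members, HLA-G being the exception, and replicate 2 was the lowest for the same 6. At 0 h only 1 member, HLA-G, had the same replicate highest in all 3 groups. The spread within groups at 24 h thus ran in the same order of replicate numbers, as in HLA-B at 333 ± 91.1 CPM in siNT with replicate 3 at 438 CPM. The p-values measure the spread among 3 cultures per group. Leaving out any 1 library kept the calls of the 6 members other than HLA-G at 24 h in every transfection, the siELMO1 0 h library of replicate 1 included.

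Markers of other cell types were followed in the same libraries. Of 10 leukocyte markers 7 were below 1 CPM in every group mean, CD3E and TYROBP had no count in any library and PTPRC reached 0.496 CPM at most. The summed level of the list was 57.9 to 81.3 CPM in Mock at 0 h and 222 to 289 CPM at 24 h, carried mainly by CD68, which was at 63.0 and 247 CPM. In siNT the sum went from a range of 40.5 to 45.7 CPM to 147 to 185 CPM, and in siELMO1 from 70.2 to 102 CPM to 201 to 245 CPM. Of 8 epithelial markers 4 were at 1 CPM or more, CDH1 and SFTPC had no count, and their sum was lower at 24 h, with 842 to 861 CPM in Mock against 1516 to 1538 CPM at 0 h, 1010.4 to 1056 CPM against 1879 to 1911 CPM in siNT, and 1098 to 1314 CPM against 2100.0 to 2224 CPM in siELMO1. Of 7 fibroblast markers 6 were below 1 CPM, and LUM and DCN had no count. The part of the epithelial markers in the results was not tested.

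Whether the rise differed between transfections was tested as an interaction in the same model. Against Mock, the rise in siNT was smaller for 6 of the 7 members. The difference of log2 fold changes was largest for NLRC5, −1.13 (SE 0.17, adjusted p = 5.7e-05, edgeR), and HLA-B, −1.04 (SE 0.24, adjusted p = 0.0027, edgeR). It was −0.90 for HLA-F, −0.86 for HLA-C, −0.62 for B2M and −0.38 for HLA-E, with adjusted p of 0.036, 0.0018, 0.0012 and 0.022 by edgeR. HLA-G had −0.79 with an adjusted p of 0.084. The NLRC5 value came more from 0 h, where siNT was at 0.75 against Mock, than from 24 h, where siNT was at −0.38. Among all tested genes 14.9% had a larger and 16.0% a smaller response in siNT than in Mock, against 0 and 6 members. The call for HLA-F was lost without any of 8 libraries, with adjusted p up to 0.114 (without siNT 0 h replicate 3), with limma-voom (adjusted p = 0.248), with library totals without TMM factors (0.0628) and with no filter (0.0691). The call for HLA-E was lost without Mock 0 h replicate 1 or 2, Mock 24 h replicate 3 or siNT 24 h replicate 1 or 2, with adjusted p from 0.0588 to 0.0884, and with library totals without TMM factors (0.0804).

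Between siELMO1 and siNT, the rise was larger in siELMO1 for NLRC5, by 0.97 on the log2 scale (SE 0.17, adjusted p = 2.2e-04, edgeR), and for HLA-G, by 0.97 (SE 0.34, adjusted p = 0.035, edgeR). At 24 h NLRC5 in siELMO1 was at 0.26 against siNT, which was not called. Most of its difference between responses came from 0 h, where NLRC5 in siELMO1 was at −0.71 against siNT. For the other members the difference was not called, with values of 0.58 for HLA-B (interval 0.079 to 1.08), 0.64 for HLA-F (−0.038 to 1.31), 0.41 for HLA-C (0.021 to 0.81), 0.33 for B2M (0.062 to 0.60) and −0.17 for HLA-E (−0.42 to 0.075), all 95% intervals. Of all tested genes 16.7% had a larger and 17.8% a smaller response in siELMO1, against 2 and 0 members. The HLA-G call was lost without siNT 0 h replicate 1, siELMO1 0 h replicate 2 or 3, siNT 24 h replicate 2 or 3 or siELMO1 24 h replicate 3, with adjusted p from 0.0657 to 0.104, and with limma-voom (0.105), no filter (0.0768) and the compared libraries only (0.0643). Without siNT 24 h replicate 3, HLA-B (0.83), HLA-C (0.62), HLA-F (0.89) and B2M (0.46) were called too while HLA-G was not, and without siELMO1 0 h replicate 1 HLA-B (0.69) and HLA-F (0.96) were. HLA-B was also called without siELMO1 24 h replicate 2 (0.67), and B2M without Mock 24 h replicate 2 or 3 or siELMO1 24 h replicate 1 or 2 (0.33 to 0.38).

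Between siELMO1 and Mock, which share the siELMO1 libraries with the comparison just given, HLA-E alone had a different response. Its rise was smaller in siELMO1, by −0.55 on the log2 scale (SE 0.12, adjusted p = 0.0020, edgeR), and the call held without any 1 library. Most of this value came from the start, since HLA-E in siELMO1 was above Mock by 0.41 at 0 h. At 24 h it was at −0.14 against Mock, which was not called. Of all tested genes 13.8% had a larger and 14.6% a smaller response, against 0 and 1 members. The values for the others ran from −0.46 for HLA-B (95% interval −0.97 to 0.046) to 0.18 for HLA-G (−0.53 to 0.89). Without siNT 24 h replicate 3 or siELMO1 24 h replicate 3, HLA-C (−0.45 and −0.59) and B2M (−0.29 and −0.39) were called smaller too.

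**Figure D3:**
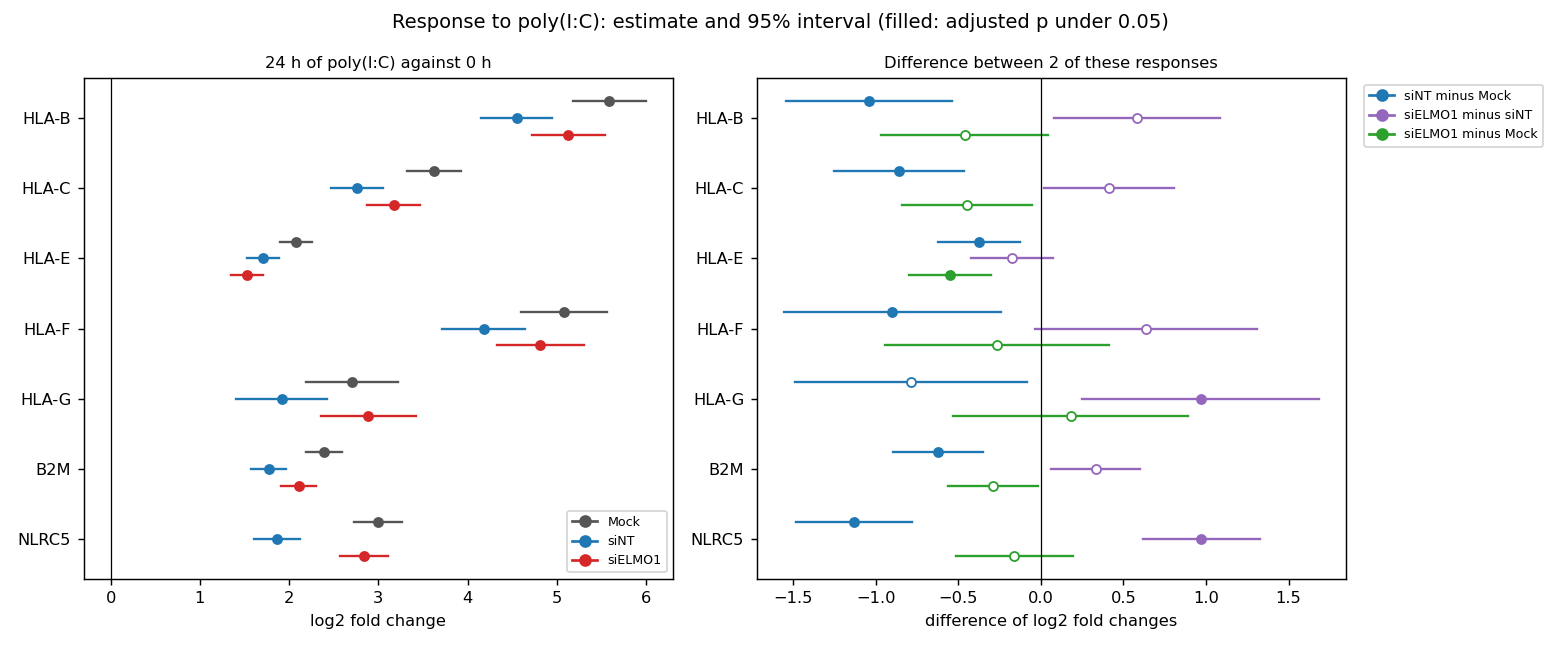
Log2 fold change of 24 h against 0 h in each transfection (left, x axis) and difference between these fold changes (right, x axis) for the 7 genes (rows), as edgeR estimates with 95% intervals, filled where the adjusted p was under 0.05. All 21 responses lie above 0, from 1.53 (HLA-E, siELMO1) to 5.59 (HLA-B, Mock), but for HLA-G the filter favoured this direction. The siNT minus Mock differences lie below 0 for all 7 genes.

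Before the stimulus, HLA-E was the member called in all 3 comparisons of transfections. It was lower in siNT than in Mock, by −0.45 on the log2 scale (SE 0.084, adjusted p = 2.3e-04, edgeR), whereas in siELMO1 it was above Mock, by 0.41 (SE 0.083, adjusted p = 5.0e-04, edgeR), and above siNT, by 0.86 (SE 0.084, adjusted p = 8.0e-08, edgeR). These 3 calls held without any 1 library and under every other setting. NLRC5 was 1.68-fold higher in siNT than in Mock (log2 0.75, SE 0.12, adjusted p = 5.6e-05, edgeR) and 1.64-fold lower in siELMO1 than in siNT (log2 −0.71, SE 0.12, adjusted p = 6.8e-05, edgeR). Between siELMO1 and Mock, NLRC5 differed by 0.037 (95% interval −0.22 to 0.30), and the sign of this value changed without Mock 0 h replicate 1, at −0.029, or siELMO1 0 h replicate 1, at −0.064.

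B2M followed NLRC5 in sign at 0 h, with 0.33 in siNT against Mock (SE 0.091, adjusted p = 0.0060, edgeR) and −0.26 in siELMO1 against siNT (SE 0.091, adjusted p = 0.018, edgeR). The latter was −0.24 with an adjusted p of 0.0575 without siNT 0 h replicate 2. HLA-B and HLA-C were higher in siNT than in Mock by 0.49 (SE 0.18, adjusted p = 0.029, edgeR) and 0.41 (SE 0.13, adjusted p = 0.017, edgeR). The HLA-B call was lost without any of 6 libraries, each of the 3 Mock 0 h libraries among them, with adjusted p up to 0.107, and with limma-voom (0.139), library totals without TMM factors (0.0610) and no filter (0.0503). The HLA-C call was lost without Mock 0 h replicate 1 (adjusted p = 0.0655) or 2 (adjusted p = 0.0915). HLA-F and HLA-G differed in none of the comparisons at 0 h. Without siELMO1 0 h replicate 1, HLA-G was called lower in siELMO1 than in siNT, at −0.71 in place of −0.43 (adjusted p = 0.038, edgeR). HLA-C in siELMO1 against Mock, at 0.32 (adjusted p = 0.056, edgeR), was called without Mock 24 h replicate 3, siNT 24 h replicate 2 or 3 or siELMO1 24 h replicate 3, with adjusted p from 0.0128 to 0.0487.

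Counted over the members, 4 were above and 1 below Mock in siNT at 0 h, where 27.6% and 24.0% of all tested genes were. Between siELMO1 and siNT 1 was higher and 2 lower, against 31.3% and 31.3% of all tested genes. Between siELMO1 and Mock 1 was higher and 0 lower, against 27.9% and 22.4%. These comparisons share control libraries. Apart from siNT against Mock, the counts among 7 members are no larger than the shares over all genes.

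At 24 h all 7 members were lower in siNT than in Mock. The differences on the log2 scale were −0.82 for HLA-E (SE 0.083, adjusted p = 3.6e-07, edgeR), −0.66 for HLA-G (SE 0.22, adjusted p = 0.021, edgeR) and −0.64 for HLA-F (SE 0.18, adjusted p = 0.0061, edgeR). They were −0.55 for HLA-B, −0.45 for HLA-C, −0.38 for NLRC5 and −0.30 for B2M, with adjusted p of 0.0074, 0.0076, 0.010 and 0.012 by edgeR. Of all tested genes 24.9% were lower and 25.2% higher. The libraries of siNT and Mock did not overlap for HLA-E, HLA-F and HLA-G. They overlapped for the other members, where siNT replicate 3 lay within the range of Mock. The share of all tested genes without such overlap was not computed. Without Mock 24 h replicate 3 the calls for HLA-B, HLA-G, B2M and NLRC5 were lost, with adjusted p of 0.0502, 0.0951, 0.0771 and 0.0504. Without siNT 24 h replicate 2 those for HLA-C, HLA-G, B2M and NLRC5 were lost, with adjusted p of 0.0502, 0.0653, 0.0693 and 0.0677. The HLA-G call was also lost without Mock replicate 1 (0.0504) or siNT replicate 3 (0.0750), and the B2M call without siNT replicate 1 (0.0578). For this pair of groups, whose replicate numbers met the rule for pairing given below, the fit with the replicate number as a block left all 7 lower. That rule rests on correlations in these data and not on the design. According to the paper, siNT cells died in large numbers after poly(I:C), Mock cells died much less, and apoptosis was inhibited in siELMO1 cells. The paper proposes cell death as the likely reason for the lower inflammatory transcripts of siNT cells. The part of cell death in the differences between transfections after poly(I:C), or between their responses, was not tested.

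In siELMO1 compared with siNT at 24 h, HLA-E was higher by 0.68 on the log2 scale, or 1.61-fold (SE 0.083, adjusted p = 2.5e-06, edgeR), with every library above those of siNT and the call unaffected by leaving out any 1 library. HLA-C was higher by 0.33 (SE 0.13, adjusted p = 0.041, edgeR) and HLA-F by 0.45 (SE 0.18, adjusted p = 0.042, edgeR), both with overlapping libraries. The other values were 0.54 for HLA-G (95% interval 0.064 to 1.01, adjusted p = 0.053, edgeR), 0.34 for HLA-B (0.0074 to 0.67, adjusted p = 0.080, edgeR), 0.26 for NLRC5 (0.019 to 0.50, adjusted p = 0.066, edgeR) and 0.070 for B2M (−0.12 to 0.26, adjusted p = 0.54, edgeR). Thus 3 of 7 members were higher and 0 lower, against 26.0% and 26.5% of all tested genes. With the replicate number as a block, HLA-B, HLA-G and NLRC5 were called higher as well, with adjusted p of 0.024, 0.042 and 0.013 by edgeR.

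How many members passed here depended on single libraries. The HLA-C call was lost without siNT 24 h replicate 1 (adjusted p = 0.165) or 2 (0.198) or siELMO1 24 h replicate 3 (0.250), and the HLA-F call without these 3 (0.145, 0.198 and 0.161), siELMO1 24 h replicate 1 (0.0800) or Mock 0 h replicate 1 or 2 (0.0503 each). Without siNT 24 h replicate 3, the highest siNT library, HLA-B (0.59, adjusted p = 0.0018, edgeR) and NLRC5 (0.43, adjusted p = 0.0019, edgeR) were called as well, making 5 members. Without siELMO1 24 h replicate 2 HLA-B passed at 0.43 (adjusted p = 0.0492, edgeR), and HLA-G passed without any of 5 libraries, with adjusted p from 0.0329 to 0.0494.

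Against Mock at 24 h, siELMO1 had 0 members higher and 0 lower by edgeR, while 21.6% and 22.0% of all tested genes were. At an unadjusted p under 0.05, 1 member, B2M, was lower, and DESeq2 and limma-voom each called it lower. B2M was at −0.23 (95% interval −0.42 to −0.035, adjusted p = 0.052, edgeR). It was called without Mock 24 h replicate 2, siNT 24 h replicate 2 or 3, or siELMO1 24 h replicate 3, with adjusted p from 0.00742 to 0.0441. The other 6 ran from −0.21 for HLA-B (−0.54 to 0.12) to −0.12 for HLA-C, HLA-G and NLRC5, with HLA-E at −0.14 (−0.31 to 0.037).

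**Figure D4:**
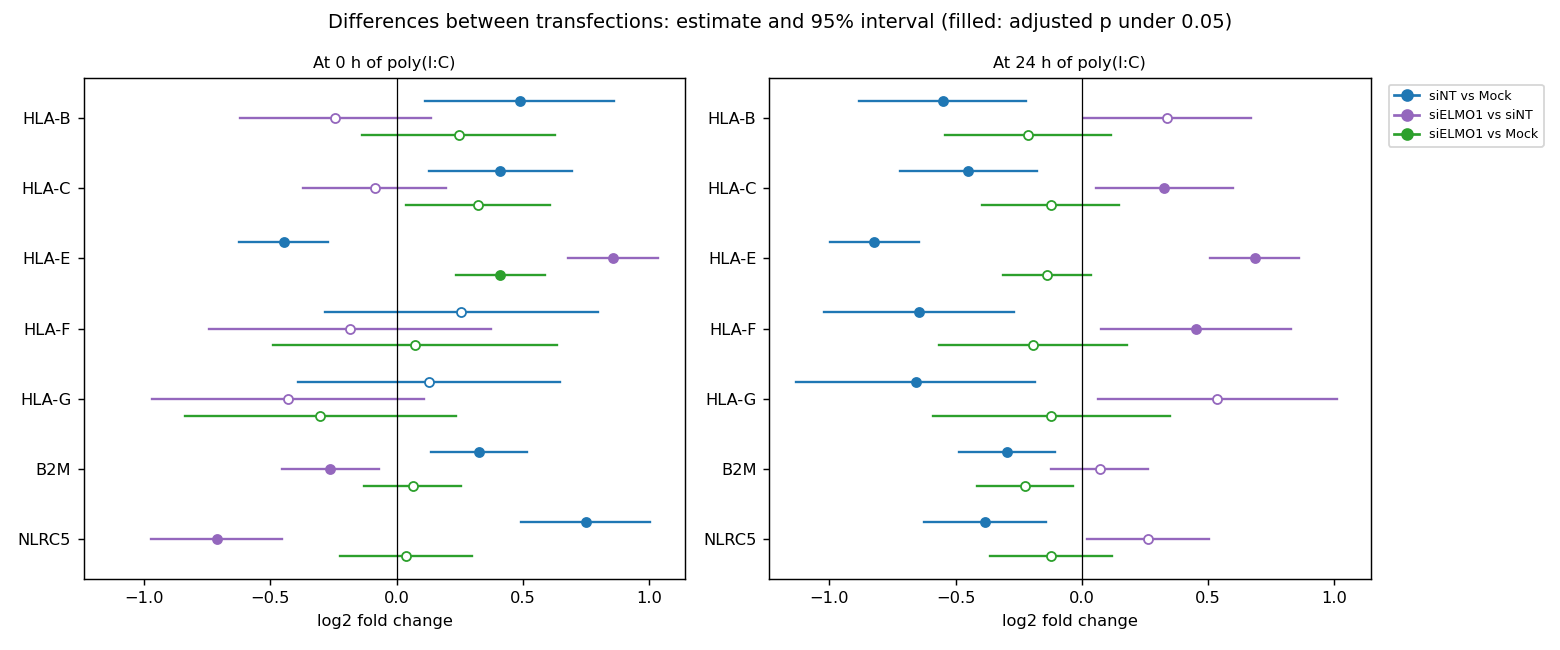
Log2 fold changes between transfections at 0 h (left) and 24 h (right) for the 7 genes (rows), as edgeR estimates with 95% intervals (x axis), filled where the adjusted p was under 0.05. HLA-E shows the widest separation, at 0.86 for siELMO1 against siNT at 0 h and −0.82 for siNT against Mock at 24 h.

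To compare levels between genes, CPM was divided by the length in kb of each gene's leading transcript, which was 1536 nt for HLA-B, 1554 nt for HLA-C, 2548 nt for HLA-E, 1283 nt for HLA-F, 1490 nt for HLA-G, 943 nt for B2M and 6781 nt for NLRC5. On this scale the order in Mock at 0 h was B2M at 321 ± 4.97, HLA-E at 60.6 ± 3.75, HLA-C at 18.6 ± 1.01, HLA-B at 6.61 ± 0.244, NLRC5 at 2.39 ± 0.134, HLA-F at 0.692 ± 0.0405 and HLA-G at 0.461 ± 0.0523 CPM per kb, and no neighbours overlapped. The same order held in siNT and siELMO1 at 0 h. At 24 h in Mock it was B2M at 1688 ± 173, HLA-B at 318 ± 52.5, HLA-E at 256 ± 18.3, HLA-C at 229 ± 28.5, HLA-F at 23.4 ± 4.09, NLRC5 at 19.1 ± 1.56 and HLA-G at 3.01 ± 0.533 CPM per kb. HLA-B had moved ahead of HLA-C and HLA-E, but the libraries of HLA-B and HLA-E, and those of HLA-E and HLA-C, overlapped. HLA-F at 21.0 to 28.1 and NLRC5 at 17.6 to 20.8 CPM per kb were just apart. In siELMO1 the order at 24 h was the same, with HLA-F and NLRC5 overlapping at 20.5 and 17.5 CPM per kb. In siNT HLA-C at 167 ± 38.6 CPM per kb came before HLA-E at 145 ± 20.9, after HLA-B at 217 ± 59.3. The libraries of HLA-C overlapped those of both, as did those of HLA-F at 15.0 ± 4.29 with those of NLRC5 at 14.6 ± 2.98. These orders depend on the lengths used. At 0 h the leading transcripts of HLA-F and NLRC5 held means of 0% and 12.9% of their counts. That of HLA-B held 0% in 3 libraries.

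The make-up of the heavy-chain transcripts therefore changed between 0 h and 24 h. Of the summed level of the 5 HLA members, which does not cover every class I gene, HLA-E held 69.7% ± 0.323 in Mock, 55.7% ± 0.591 in siNT and 71.5% ± 1.44 in siELMO1 at 0 h, and 31.0% ± 1.64, 26.8% ± 1.98 and 31.6% ± 2.15 at 24 h. HLA-B held 7.61% ± 0.156, 11.6% ± 0.750 and 6.91% ± 0.610 at 0 h and 38.2% ± 1.50, 39.5% ± 1.76 and 36.9% ± 1.54 at 24 h. HLA-C went from 21.4% ± 0.122 to 27.6% ± 0.217 in Mock and from 20.6% ± 0.617 to 28.3% ± 0.625 in siELMO1, and was at 31.0% ± 0.889 and 30.6% ± 0.174 in siNT. HLA-F went from 0.799% ± 0.0913 to 2.81% ± 0.178 in Mock, and HLA-G was below 1% in every library. At 0 h siNT thus had a smaller part of HLA-E and a larger part of HLA-B and HLA-C than the other groups, and at 24 h the groups were closer together.

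These shares were tested between times with an exact two-sided permutation test that exchanged libraries within each transfection, over 8000 arrangements and with p adjusted over 6 quantities. HLA-B was 4.50-fold higher and HLA-F 3.50-fold higher at 24 h, HLA-E was 2.20-fold lower, and each had p = 0.00025 (adjusted p = 0.000375), the smallest p these permutations can give. HLA-C was higher by a mean of 0.27 on the log2 scale (exact permutation p = 0.0030, adjusted p = 0.0036). This came from Mock (0.37) and siELMO1 (0.46), while siNT was at −0.017. HLA-G did not pass (exact permutation p = 0.05025). The ratio of B2M to the 5 heavy chains was 3.70 ± 0.161 in Mock, 5.04 ± 0.0381 in siNT and 2.98 ± 0.135 in siELMO1 at 0 h and 2.04 ± 0.0486, 2.55 ± 0.190 and 1.95 ± 0.0540 at 24 h. It was 1.76-fold lower at 24 h (exact permutation p = 0.00025, adjusted p = 0.000375). Shares sum to 100%, so a rise of some members lowers the others.

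**Figure D5:**
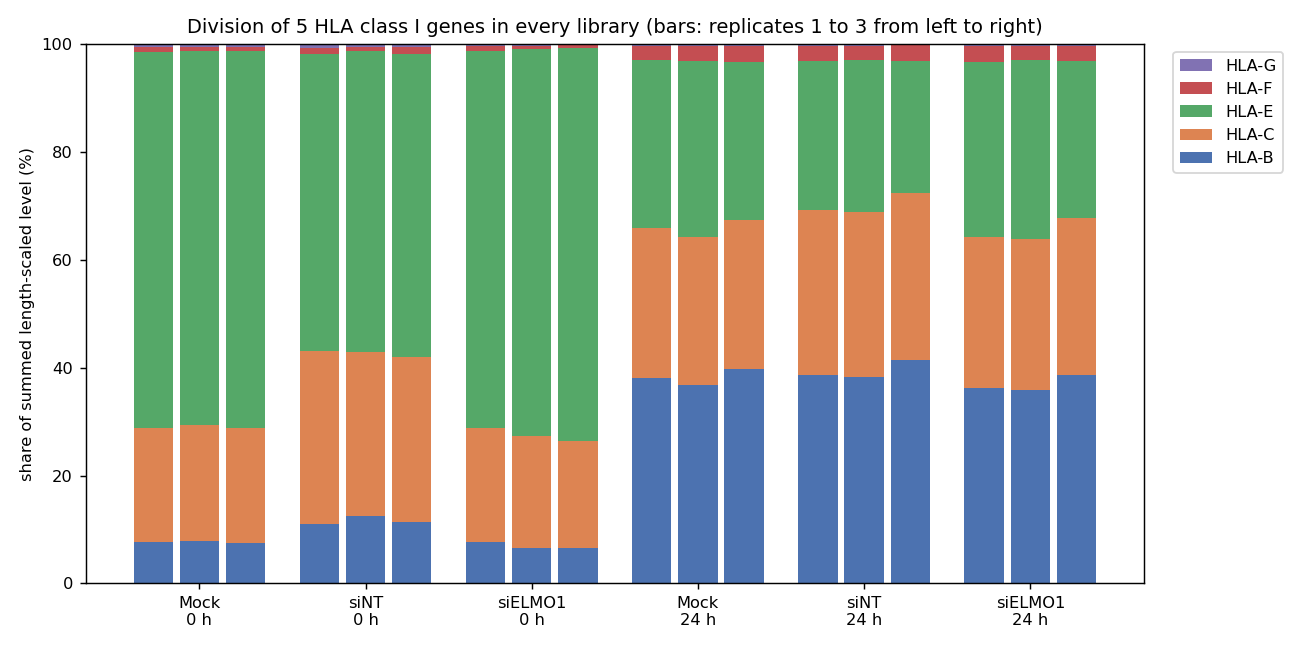
Share of each of 5 HLA class I genes in their summed length-scaled level (y axis, percent, from 0), with 1 stacked bar per library, grouped by transfection and time (x axis). HLA-E takes 55.1 to 72.8% of every 0 h bar and 24.6 to 33.2% of every 24 h bar, while HLA-B grows from 6.50 to 12.5% to 35.8 to 41.5%.

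Transcript counts of the same genes were less stable than gene counts. HLA-E was assigned almost wholly to HLA-E-201, with 98.8 to 99.7% of its counts in every library, and HLA-C mainly to HLA-C-203, with 59.6 to 76.3%. B2M had 38.3 to 91.2% on B2M-211. The main transcript of HLA-B, HLA-B-249, took no count in 3 libraries, replicate 2 of each 0 h group, and in Mock 24 h replicate 3 it took 30.9% while HLA-B-257, annotated as subject to nonsense-mediated decay and at most at 0.053% elsewhere, took 56.3%. HLA-G was assigned to HLA-G-204 wholly in 7 libraries and not at all in 9. Such jumps between replicates of a group show that the division among transcripts was not well determined for HLA-B and HLA-G. Nor was it for HLA-F, where 5 different transcripts were the top one in some library, against 4 each for HLA-B and HLA-G.

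The leading transcript of a gene is the one with most counts over all libraries, and for members that rose this total comes mostly from 24 h. Shares at both times are therefore a description. HLA-F-217 held 0% in all 0 h libraries, where HLA-F had only 32 to 89 counts, and a mean of 41.4% at 24 h, with 6.9 to 81.8% in single libraries. NLRC5-229 held a mean of 12.9% at 0 h, with 4 of these libraries at 0%, and 44.8% at 24 h.

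Genes around the members in the class I pathway were followed with a list of 31 genes for peptide production, transport and loading and for transcription factors of class I promoters. After poly(I:C), 27 of the 31 were higher and 2 lower in Mock, 23 and 4 in siNT and 24 and 2 in siELMO1, with median log2 fold changes of 1.39, 0.94 and 1.08 against 0.0066, 0.014 and −3.6e-05 over all tested genes. Of all tested genes 30.7% were higher and 29.6% lower in Mock, 28.6% and 25.2% in siNT and 28.0% and 26.9% in siELMO1. The largest rise of the list was that of TAP1, a subunit of the peptide transporter, from 19.9 to 329 CPM in Mock (log2 4.05, adjusted p = 1.4e-15, edgeR). PSMB9, an immunoproteasome subunit, went from 8.62 to 100.2 CPM (log2 3.54, adjusted p = 5.8e-15, edgeR). IRF1, an interferon regulatory factor, rose by 2.97 (adjusted p = 2.9e-13, edgeR), and RFX5, an X-box factor with which NLRC5 acts, by 1.06 (adjusted p = 8.3e-11, edgeR). USF2, an E-box factor, fell by 0.61 on the log2 scale (adjusted p = 2.7e-07, edgeR), the largest fall of the list.

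IRF1 differed between transfections in the same directions as NLRC5. It was higher in siNT than in Mock at 0 h, by 0.47 (adjusted p = 0.0017, edgeR), lower in siELMO1 than in siNT, by −0.67 (adjusted p = 4.7e-05, edgeR), and at 24 h below Mock in siNT, by −0.49 (adjusted p = 0.0010, edgeR). Its response to poly(I:C) was larger in siELMO1 than in siNT by 0.93 (adjusted p = 1.4e-04, edgeR).

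In siELMO1 compared with siNT at 24 h, 14 of the 31 pathway genes were higher and 3 lower, against 26.0% and 26.5% of all tested genes. The median of the 31 was 0.20, against −0.0061 over all tested genes. Without siNT 24 h replicate 1, or without siELMO1 24 h replicate 3, 9 of the 31 were higher. CALR, the chaperone calreticulin, had the largest rise (0.71, adjusted p = 8.5e-10, edgeR) and IRF9, a subunit of the interferon-activated complex ISGF3, the largest fall (−0.97, adjusted p = 6.1e-05, edgeR). TAP1 was higher by 0.50 (adjusted p = 2.5e-04, edgeR) and IRF1 by 0.27 (adjusted p = 0.044, edgeR), and PSMB9 (0.20, adjusted p = 0.075, edgeR) and RFX5 (0.13, adjusted p = 0.074, edgeR) did not pass. At 0 h 10 of the 31 were higher and 10 lower, against 31.3% and 31.3% of all tested genes. At 24 h 21 of the 31 were lower and 3 higher in siNT than in Mock, against 24.9% and 25.2% of all tested genes. The median of the 31 was −0.38, and the 3 became 1 without any of 7 libraries.

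Other class I-like molecules and natural killer ligands were followed with a list of 14, of which 9 were tested. In Mock 5 were higher and 2 lower after poly(I:C), with a median of 0.40, where 30.7% and 29.6% of all tested genes were. The 2 became 1 without Mock 0 h replicate 2 or Mock 24 h replicate 3 and 0 without Mock 24 h replicate 2. MICB, a stress-induced ligand of NKG2D, rose by 1.50 (adjusted p = 4.4e-12, edgeR), and ULBP3, another NKG2D ligand, was lower by −0.25 (adjusted p = 0.029, edgeR). Between siELMO1 and siNT at 24 h 5 were higher and 1 lower, with a median of 0.37, where 26.0% and 26.5% of all tested genes were. In this comparison MR1, which presents vitamin B metabolites, was at 22.1 against 6.99 CPM (log2 1.66, adjusted p = 2.3e-08, edgeR) and ULBP3 at 13.0 against 26.7 CPM (log2 −1.04, adjusted p = 6.9e-08, edgeR).

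Class I pseudogenes can share reads with the members. Of 13 names 4 were tested, and all 4 were called higher at 24 h in each transfection, but the means of HLA-J, HLA-L and HLA-U at 0 h were below 1 CPM in every group, so passing the filter favoured this direction for them. HLA-J, with the largest difference, was at 0.223 and 3.42 CPM in Mock. HLA-H, above 1 CPM at both times, was at 4.51 and 38.5 CPM. None of the 4 was called between siELMO1 and siNT at 24 h by edgeR, where 26.0% of all tested genes were higher and 26.5% lower. Without siNT 24 h replicate 3, 1 of the 4 was called.

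Of 13 class II names 7 were tested, and in Mock 1 was higher and 2 lower after poly(I:C), with a median of −0.61, where 30.7% and 29.6% of all tested genes were. The 2 became 1 without any of 11 libraries. CD74, the invariant chain, rose from 2.13 to 3.92 CPM (log2 0.88, adjusted p = 0.0023, edgeR), and HLA-DRA, a class II heavy chain, fell from 2.29 to 1.13 CPM (log2 −1.01, adjusted p = 0.0030, edgeR). CIITA, the class II counterpart of NLRC5, was at 9.17 and 5.19 CPM in Mock at 0 h and 24 h (log2 −0.82, adjusted p = 0.049, edgeR) and at 3.00 and 7.68 CPM in siELMO1 (log2 1.33, adjusted p = 0.0044, edgeR), and this difference between responses passed (2.15, adjusted p = 0.0035, edgeR). In siELMO1 compared with siNT at 24 h HLA-DRA was the only one of the 7 called (1.00, adjusted p = 0.0060, edgeR). Of all tested genes 26.0% were higher and 26.5% lower there.

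Among the other 21 NLR genes, which include CIITA, 8 were tested. In Mock 4 were higher and 1 lower after poly(I:C), with a median of 0.12, where 30.7% and 29.6% of all tested genes were. The 4 became 2 without Mock 0 h replicate 1 or 3 or Mock 24 h replicate 2, and the 1 lower gene, CIITA, was lost without any of 11 libraries. NLRP3, the inflammasome sensor, rose most, from 8.80 to 39.5 CPM (log2 2.17, adjusted p = 3.6e-11, edgeR), less than the log2 3.00 of NLRC5, a difference between genes that was not tested. Between siELMO1 and siNT at 24 h 2 were higher and 0 lower, where 26.0% and 26.5% of all tested genes were. NAIP had the largest value of the list (0.49, adjusted p = 0.032, edgeR). The count of higher NLR genes ran from 0 to 2 with single libraries left out.

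The genes most like each member over the 18 libraries were sought among 10811 genes with a mean of 5 CPM or more, by Pearson's r of log2(CPM + 1). Since the libraries fall into a group at 0 h and a group at 24 h, r is set mainly by this separation and is only a description. HLA-B was nearest to HLA-C (0.999), PSMB9 (0.998) and SLC15A3 (0.998), and HLA-C to HLA-B (0.999), MFSD12 (0.998) and APOBEC3G (0.997). HLA-E stood apart from the other chains, its nearest genes being BTN3A1 (0.996), TRIM38 (0.995) and RHBDF2 (0.995), and its r with HLA-B was 0.934. HLA-F was nearest to TNFSF10 (0.999), GBP4 (0.998) and IFIH1 (0.998), and HLA-G to B3GNT2, CCL20 and SOD2 (0.986 each). B2M had HLA-B and HLA-H (0.997 each) among its nearest genes. NLRC5 was nearest to OAS1, PSMA6 and VEGFC (0.995 each).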

How the data were processed

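RNA of 18 EA.hy926 libraries was sequenced in 6 groups of 3. According to the study's methods, the authors aligned reads to GRCh38 with STAR and quantified them with StringTie, and the deposited matrices hold estimated counts (expected counts) per gene and per transcript, whole numbers that are not normalized. How coverage was turned into counts affects their size, and read division among similar HLA genes is fixed in these values. The 7 members and the gene lists were chosen with earlier results of these data known, so they are no independent choice.

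Genes with at least 100 counts in total and 1 CPM in any library were tested, 15167 of 62754, with edgeR 4.0.16 (R 4.3.3), TMM factors (0.958 to 1.06) and a quasi-likelihood test of 12 comparisons in 1 model. The two-sided p-values were adjusted over all tested genes. The script was tested on simulated data. Shares were computed from CPM per kb of the leading transcript and tested by exact permutation. Promoters came from RefSeq (GRCh38.p14), gene positions from GENCODE 44.

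Replicate numbers were checked for pairing over 45 pairs of libraries. The correlation of their deviations had a median of 0.0496. Only Mock and siNT at 24 h had all 3 pairs over 0.1 (lowest r of 0.166), so by this rule only these libraries were taken as paired. The rule does not exclude pairing elsewhere. For replicates 1, 2 and 3 at 24 h, siELMO1 had r of 0.0287, 0.241 and 0.366 with Mock. With siNT it had 0.0392, 0.183 and 0.335. Alternatives were DESeq2 1.42.0, limma-voom (limma 3.58.1), other scaling and filters, a replicate block, the compared libraries only and each library left out. Genes named beside the members are ELMO1, the 3 most alike to each member, the called gene of each list with the largest rise and fall in 24 h against 0 h in Mock and in siELMO1 against siNT at 24 h, and TAP1, PSMB9, IRF1, CIITA and RFX5. Values of some genes under this rule are not reported here.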

Additional observations from a re-analysis of the deposited data

Results flagged for a closer look

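Of the 7 members, 9 differences between poly(I:C) responses passed the interaction test, each a difference of log2 fold changes between a pair of transfections. In siNT minus Mock they were −1.04 for HLA-B, −0.86 for HLA-C, −0.38 for HLA-E, −0.90 for HLA-F, −0.62 for B2M and −1.13 for NLRC5. In siELMO1 minus siNT they were 0.97 for HLA-G and 0.97 for NLRC5, and in siELMO1 minus Mock −0.55 for HLA-E. The siNT libraries take part in 8 of these 9, so they are not separate observations. NLRC5 is the gene whose siNT response differed from both other transfections, with adjusted p of 5.7e-05 and 2.2e-04 by edgeR. The larger part of both NLRC5 values came from 0 h, where siNT was at 0.75 against Mock and siELMO1 at −0.71 against siNT.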

How the results depend on the processing

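The 6 members other than HLA-G stayed higher at 24 h than at 0 h in Mock, siNT and siELMO1 under every alternative run. The counts that moved are members called, with the reported count first. In siELMO1 against siNT at 24 h, 3 higher became 5 with DESeq2, 5 with limma-voom, 1 with library totals without TMM factors, 1 without the filter, 2 with filterByExpr or the compared libraries only and 1 to 5 with single libraries left out. In siELMO1 against Mock at 24 h, 0 lower became 1 with DESeq2, limma-voom and library totals, and 0 to 1 with libraries left out. In siELMO1 against Mock at 0 h, 1 higher became 2 with the compared libraries only, and 1 to 2 with libraries left out. The larger responses in siELMO1 than in siNT went from 2 to 3 with DESeq2 (B2M added), to 1 with limma-voom, without the filter and with the compared libraries only, and ran from 1 to 5 with libraries left out. The 6 smaller responses in siNT than in Mock became 4 with library totals and 5 with limma-voom or without the filter, and ran from 4 to 6 with libraries left out. Members below Mock in siNT at 24 h went from 7 to 6 without the filter, and those above it at 0 h from 4 to 3 with limma-voom, library totals or no filter. With libraries left out, members below Mock in siNT at 24 h ran from 3 to 7 and those above it at 0 h from 2 to 4, members lower in siELMO1 than in siNT at 0 h from 1 to 3, and smaller responses in siELMO1 than in Mock from 1 to 3. The cause was not tested.

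With the replicate number as a block, 6 members were higher in siELMO1 than in siNT at 24 h, 1 was lower than in Mock at 24 h and 2 were higher than in Mock at 0 h. In the same block fit 5 responses were larger in siELMO1 than in siNT and 3 smaller than in Mock. The numbers of these groups did not meet the rule for pairing, which does not exclude pairing. Of 18 libraries 11, and 8 of 9 among the 24 h groups, correlated best with their own number. This is a hint from the data and not from the design. The block changed no call of siNT against Mock.

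Values that changed sign were not called, apart from a sum. With library totals, HLA-F, NLRC5 and B2M in siELMO1 against Mock at 0 h were at −0.0011, −0.040 and −0.017, and with the compared libraries only HLA-F and NLRC5 were at −0.0047 and −0.0098. With single libraries left out, the lowest and highest values in that comparison were −0.25 and 0.23 for HLA-F and −0.064 and 0.12 for NLRC5. They were −0.049 and 0.26 for HLA-G in siNT against Mock at 0 h, −0.30 and 0.0087 for HLA-G in siELMO1 against Mock at 24 h, and −0.032 and 0.19 for B2M in siELMO1 against siNT at 24 h. For the response of siELMO1 minus Mock they were −0.43 and 0.056 for HLA-F and −0.0042 and 0.46 for HLA-G. Summing the counts of the 5 heavy chains, which gives HLA-E most weight, gave 0.60 for siELMO1 against siNT at 0 h (median of 5: −0.18), −0.22 for siNT against Mock at 0 h and −0.13 for the response of siELMO1 minus siNT.

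Library totals without TMM factors shifted the median of all tested genes in 24 h against 0 h of Mock to −0.11 and turned 4655 higher and 4489 lower genes into 3557 and 5818. The same scaling turned 4225 and 3393 into 3276 and 4187 for siELMO1 against Mock at 0 h, 2267 and 2428 into 3070 and 1674 for the response of siNT minus Mock, and 2090 and 2209 into 2551 and 1679 for that of siELMO1 minus Mock. HLA-F and HLA-G had few counts at 0 h, which limits what can be detected there.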
